A study of Mus musculus with 10 samples.

Results

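The BCL2 family and the Fas death receptor pair decide, as textbook knowledge has it, whether a T cell survives or dies. Described here are the probe sets that a 10-array mouse T cell series carries for Bcl2, Bcl2l1, Mcl1, Bax, Bak1, Bcl2l11, Bid, Fas and Fasl, in the cell types and vector conditions of the study. A probe set was taken when its annotation held one of these 9 symbols and no other. That gave 28 probe sets for 8 genes, of 34945 probe sets with a single symbol for 18193 genes, and every probe set of a gene was kept. Bcl2 had 5 probe sets, Bcl2l1 4, Mcl1 6, Bak1 2, Bcl2l11 5, Bid 3, Fas 1 and Fasl 2. No probe set carried Bax alone, so Bax was not analysed here. Of the 28, 27 passed the filter on low values, which asked for a value above the array's median on at least 2 arrays. The exception was the Bid probe set 1447873_x_at, with intensities from 0.284 to 9.35.

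All 10 arrays held CD4+ T cells sorted from mouse spleen, activated through CD3 and CD28, transduced with a retrovirus that carries the surface tag NGFR and sorted again as NGFR+ cells. The animals were DEREG mice, which carry a transgene that makes green fluorescent protein (GFP) under Foxp3 gene control, or DEREG/Scurfy mice, whose own Foxp3 gene is mutated. The strain field gives DEREG_Balb/c for every array. For 4 arrays the description shortens the mouse line to D_S, taken here to mean DEREG/Scurfy. No age was given. Nothing says that the 2 replicates of a group had separate animals or cultures behind them, so the p-values reflect only how far these arrays spread, which may be technical. The 5 groups, of 2 arrays each, were GFP- DEREG cells with empty vector (Tconv mock), GFP- DEREG cells with the Foxp3 vector (Tconv Foxp3), GFP+ DEREG cells with empty vector (Treg), GFP+ DEREG/Scurfy cells with empty vector (scurfy mock) and GFP+ DEREG/Scurfy cells with the Foxp3 vector (scurfy Foxp3). Conventional CD4+ T cells (Tconv) lack the Foxp3 programme, and regulatory T cells (Treg) depend on it. GFP marks cells in which Foxp3 gene control is active, so the GFP+ DEREG/Scurfy cells are cells with that control active and a mutated Foxp3. All 4 scurfy arrays hold GFP+ cells.

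As background, mitochondrial apoptosis is set by contest within the BCL2 family. BCL2, BCL-XL (the product of Bcl2l1) and MCL1 hold the effectors BAX and BAK in check, and BH3-only proteins such as BIM (from Bcl2l11) and BID release that check. Activated T cells are removed by BIM when cytokine support ends, and by Fas when Fas ligand engages it. Interleukin 2 and other cytokines of its family keep BCL2 and MCL1 up, whereas signals through the T cell receptor and CD28 raise BCL-XL.

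The promoter windows of the BH3-only gene Bcl2l11 and of Fas are shown because these were the only members with values whose windows held one of the 6 motifs searched. Each window is the 250 bases before a gene start, on the plus strand of GRCm38.p6, from RefSeq. The first is chr2:128125788-128126037, before a start of Bcl2l11, and the capitals mark the forkhead core GTAAACA. The other is chr19:34290409-34290658, before the start of Fas, and the capitals mark, in order, the AP-1 motif TGAGTCA, the E-box CACGTG and a match to the STAT5 type motif TTCNNNGAA.
Bcl2l11: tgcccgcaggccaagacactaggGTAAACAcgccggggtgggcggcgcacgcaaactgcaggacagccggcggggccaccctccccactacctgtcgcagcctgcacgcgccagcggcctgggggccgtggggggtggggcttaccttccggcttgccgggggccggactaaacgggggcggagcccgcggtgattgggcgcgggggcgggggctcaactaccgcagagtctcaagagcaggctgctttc
Fas: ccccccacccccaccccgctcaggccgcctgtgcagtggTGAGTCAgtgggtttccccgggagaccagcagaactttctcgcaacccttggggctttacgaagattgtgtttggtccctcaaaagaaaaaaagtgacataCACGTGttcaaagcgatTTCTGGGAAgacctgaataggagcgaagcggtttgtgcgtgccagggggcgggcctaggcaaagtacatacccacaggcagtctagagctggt
The forkhead core lay 227 bases before the Bcl2l11 start, and 3.17% of 32851 windows of the same length held it on either strand. In the Fas window the AP-1 motif lay 211 bases before the start, the E-box 110 and the STAT5 type match 93, and none of these overlapped. The shares of windows with a match were 4.46% for AP-1, 6.02% for the E-box and 7.02% for the STAT5 type motif. The CRE TGACGTCA, in 1.55% of windows, and the NFAT core TGGAAA, in 18.6%, matched no member window. Bax also had an E-box, 9 bases before a start. A further Bcl2l11 window, chr2:128127325-128127574, held no match. A match is a run of letters and not a measured binding site.

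Array medians ran from 18.8 to 36.5 intensity units and the 75th percentiles from 124 to 191. Replicates correlated across probe sets, which are not independent, from 0.922 for scurfy mock to 0.973 for Tconv Foxp3 on the log2 scale. The Foxp3 probe set, the check on the labels, did not rise in the arrays labelled with the Foxp3 vector. Among GFP- cells its intensities were 18.0 and 18.9 with the Foxp3 vector and 53.9 and 35.9 with the empty one. Among scurfy cells they were 948 and 691 with the Foxp3 vector and 1188 and 1114 without it, and the Treg arrays read 2130 and 3128. The position of that probe set in the transcript was not given, so the groups are called Foxp3-labelled below and no direction is ascribed to Foxp3 itself. T cell markers (7 of 8 measured) summed to between 19710 and 27720 on each array, and the 3 Treg markers to 6044 to 10500 in GFP+ arrays and 523 to 785 in GFP- arrays. Summed CD8 T cell markers stayed between 51.1 and 109, and the only red blood cell marker measured stayed between 0.382 and 4.40. Myeloid markers summed to 85.6 to 447, with 4 of 7 below the filter, and NK cell markers to 2.21 to 204, with 2 of 3 below it and Eomes alone at 203 on scurfy mock array 1. B cell markers are given beside Bcl2l11 below. In bulk samples such as these, fewer cells of a type and less RNA per cell cannot be told apart.

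None of the 27 tested member probe sets passed an adjusted p of 0.05 in any of 8 comparisons (limma with Benjamini-Hochberg adjustment over all 26069 probe sets tested). The values that follow are therefore measurements with their errors and carry no call. Differences are on the log2(intensity + 16) scale, which understates those of dim probe sets. Each comes with its fitted standard error (SE) and, where given, a 95% interval, and all tests are two-sided. Against Tconv mock the whole array was shifted. The median difference over all tested probe sets was 0.26 for Treg, 0.24 for scurfy mock and 0.26 for Tconv Foxp3, and it was -0.01, -0.01 and 0.02 after quantile normalization. Member differences against Tconv mock are to be read beside that shift.

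**Figure D1:**
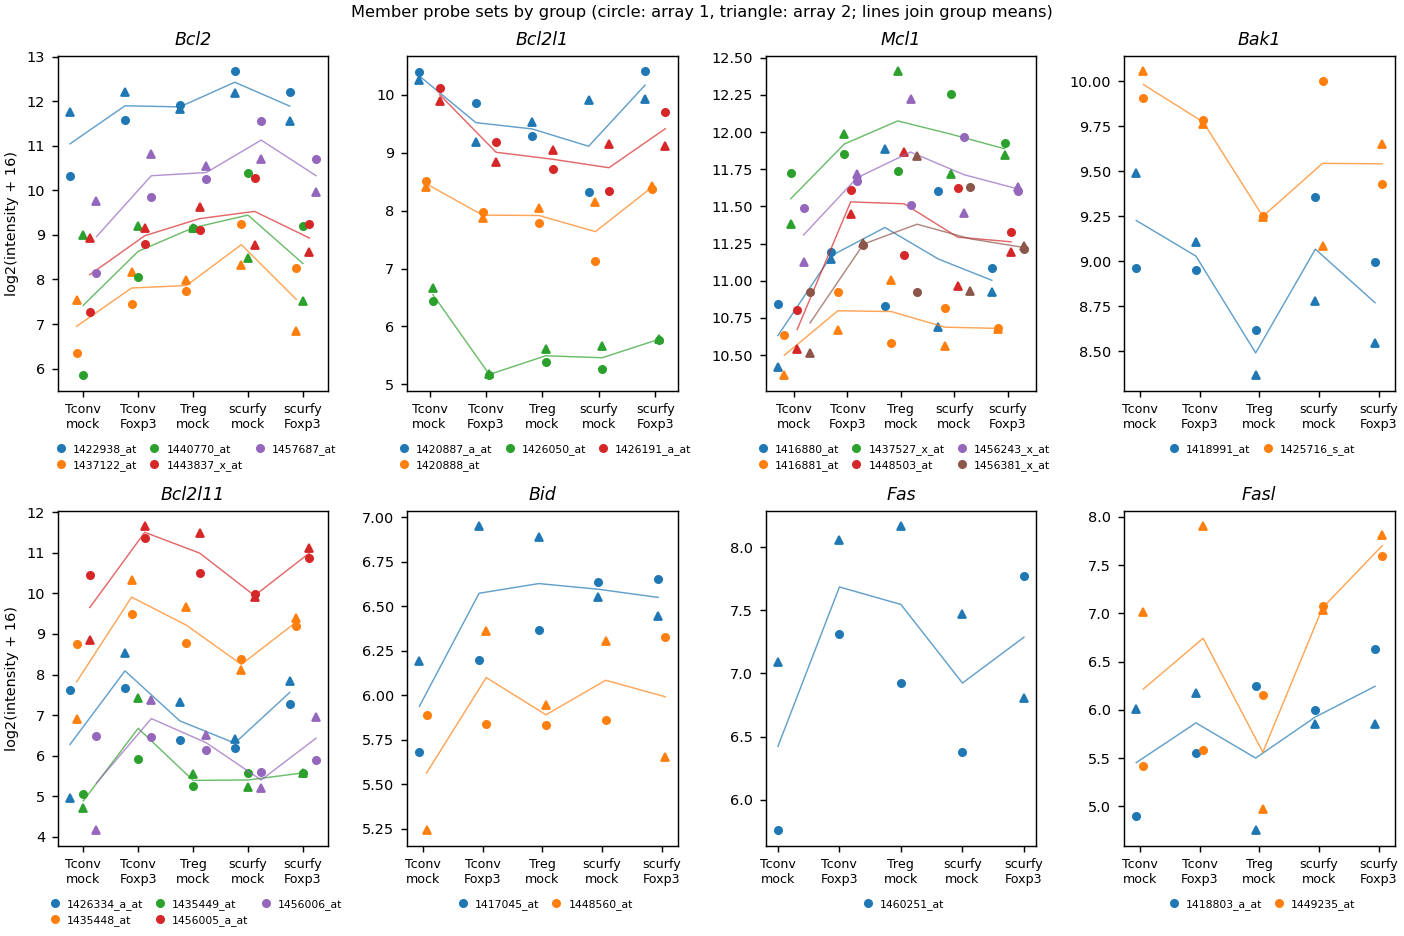
Log2(intensity + 16) of the 27 tested member probe sets (vertical axis, a separate scale for each gene) in the 5 groups (horizontal axis), with array 1 as a circle, array 2 as a triangle and lines through the group means. All 5 Bcl2 probe sets were lowest on Tconv mock array 1, all 4 Bcl2l1 probe sets were highest on a Tconv mock or scurfy Foxp3 array, and all 5 Bcl2l11 probe sets were highest on Tconv Foxp3 array 2.

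Bcl2, the founding anti-apoptotic member, was read by 5 probe sets. The brightest, 1422938_at, read 1265 and 3469 in Tconv mock, 3054 and 4720 in Tconv Foxp3, 3864 and 3611 in Treg, 6508 and 4625 in scurfy mock, and 4742 and 3014 in scurfy Foxp3. Tconv mock array 1 was lowest and scurfy mock array 1 highest, and the same held for the other 4. From the lowest to the highest array, 1440770_at spanned 41.6 to 1335, 1437122_at 65.9 to 592 and 1443837_x_at 139 to 1234. The probe set 1457687_at, which also had its highest group mean in scurfy mock and its lowest in Tconv mock, read 268 and 857 in Tconv mock, 902 and 1785 in Tconv Foxp3, 1204 and 1479 in Treg, 2990 and 1648 in scurfy mock, and 1651 and 977 in scurfy Foxp3. Every array outside Tconv mock lay above both Tconv mock arrays for this probe set. Its difference from Tconv mock was 2.17 in scurfy mock (SE 0.56, 95% interval 0.91 to 3.42, adjusted p = 0.186), 1.44 in Treg (SE 0.56, 0.18 to 2.70, adjusted p = 0.241) and 1.37 in Tconv Foxp3 (SE 0.56, 0.11 to 2.63, adjusted p = 0.351). These 3 comparisons share the Tconv mock arrays and are not independent of one another. The other 4 Bcl2 probe sets had differences from 0.83 to 1.74 in Treg, from 1.38 to 2.02 in scurfy mock and from 0.85 to 1.21 in Tconv Foxp3. The Tconv mock replicates themselves stood more than 1 log2 unit apart for all 5 probe sets, with array 2 the higher. Leaving out Tconv mock array 1 brought the Treg difference of 1457687_at to 0.63, that of scurfy mock to 1.36 and that of Tconv Foxp3 to 0.56. Leaving out Tconv mock array 2 brought them to 2.25, 2.98 and 2.18.

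Bcl2l1, which encodes the anti-apoptotic protein BCL-XL, ran the other way. Its brightest probe set, 1420887_a_at, read 1334 and 1210 in Tconv mock, 916 and 564 in Tconv Foxp3, 610 and 726 in Treg, 304 and 944 in scurfy mock, and 1344 and 960 in scurfy Foxp3. The 2 Tconv mock arrays and scurfy Foxp3 array 1 were the highest, and scurfy mock array 1 the lowest. The probe set 1426191_a_at read 1097 and 933 in Tconv mock, 565 and 441 in Tconv Foxp3, 408 and 515 in Treg, 307 and 551 in scurfy mock, and 822 and 542 in scurfy Foxp3. The dim probe set 1426050_at read 71.0 and 84.9 in Tconv mock and between 19.6 and 38.9 on the 8 other arrays, so that Tconv mock stood alone above the rest. The fourth, 1420888_at, read 350 and 325 in Tconv mock, 206 and 247 in Treg and 124 to 329 over the remaining arrays. The probe set 1426050_at had the smallest p of all members against Tconv mock, at -1.38 in Tconv Foxp3 (SE 0.28, -2.00 to -0.77, adjusted p = 0.154), -1.09 in scurfy mock (SE 0.28, -1.71 to -0.48, adjusted p = 0.174) and -1.06 in Treg (SE 0.28, -1.67 to -0.44, adjusted p = 0.112). All 4 Bcl2l1 probe sets were lower than Tconv mock without overlap in each of these comparisons. Of all probe sets, 10.9% were so in Tconv Foxp3, 11.0% in scurfy mock and 13.4% in Treg. The other 3 differed by -0.55 to -1.12 in Treg, by -0.83 to -1.26 in scurfy mock and by -0.54 to -1.0 in Tconv Foxp3.

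Some settings brought a Bcl2l1 value past the threshold. The Treg difference of 1426050_at was -1.46 after quantile normalization (adjusted p = 0.0438) and -1.34 after scaling to a common 75th percentile (adjusted p = 0.0487), and its Tconv Foxp3 difference of -1.38 reached an adjusted p of 0.02 with array weights. Under the other alternatives run, these 2 values did not reach the threshold. In scurfy mock the value of 1420887_a_at rested on 1 array, being -2.01 without scurfy mock array 2 (adjusted p = 0.048) and -0.42 without scurfy mock array 1 (adjusted p = 0.902). Unlike Bcl2, Bcl2l1 differed little between the Tconv mock replicates, where none of its probe sets was more than 1 log2 unit apart.

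Mcl1, the short-lived anti-apoptotic member on which activated T cells depend, was bright on every array. Its 6 probe sets read from 1301 to 5420 across the 10 arrays. The probe set 1448503_at read 1772 and 1473 in Tconv mock, 3110 and 2781 in Tconv Foxp3, 2289 and 3711 in Treg, 3134 and 1983 in scurfy mock, and 2553 and 2330 in scurfy Foxp3. Both Tconv mock arrays lay below every other array. Its difference from Tconv mock was 0.86 in Tconv Foxp3 (SE 0.34, 0.10 to 1.62, adjusted p = 0.337), 0.85 in Treg (SE 0.34, 0.09 to 1.60, adjusted p = 0.251) and 0.62 in scurfy mock (SE 0.34, adjusted p = 0.479). Every Mcl1 probe set was lowest on Tconv mock array 2 and highest on Treg array 2, and Tconv Foxp3 exceeded Tconv mock without overlap in all 6. Of all probe sets 45.9% did so, and the 6 read 1 gene and are not independent. The least variable, 1416881_at, changed the sign of its small Treg difference, 0.29, to -0.05 after scaling to a common 75th percentile.

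Bak1, the effector that forms pores in the outer mitochondrial membrane, was somewhat lower in Treg. The probe set 1425716_s_at read 946 and 1049 in Tconv mock, 865 and 855 in Tconv Foxp3, 594 and 592 in Treg, 1012 and 527 in scurfy mock, and 674 and 789 in scurfy Foxp3. The Treg replicates lay close together, and only scurfy mock array 2 was below them. The probe set 1418991_at read 483 and 703 in Tconv mock and 376 and 314 in Treg. Both probe sets were lower in Treg without overlap, as were 13.4% of all probe sets, by -0.73 (SE 0.33, -1.47 to 0.01, adjusted p = 0.3) and by -0.74 (SE 0.33, -1.48 to 0.00, adjusted p = 0.298). In the other 2 comparisons with Tconv mock the differences lay between -0.44 and -0.16, with intervals that included 0.

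Bcl2l11, whose product BIM is the BH3-only protein that removes T cells after activation and cytokine loss, had the largest differences between Foxp3-labelled and mock arrays. The brightest of its 5 probe sets, 1456005_a_at, read 1378 and 449 in Tconv mock, 2610 and 3199 in Tconv Foxp3, 1441 and 2834 in Treg, 990 and 949 in scurfy mock, and 1866 and 2200 in scurfy Foxp3. Foxp3-labelled arrays were above mock arrays in both kinds of starting cell, and Treg array 2 lay with the Foxp3-labelled arrays. The probe set 1435448_at read 414 and 103 in Tconv mock, 703 and 1269 in Tconv Foxp3, 420 and 793 in Treg, 317 and 263 in scurfy mock, and 571 and 657 in scurfy Foxp3, in the same order. The dimmer 1426334_a_at read 180 and 14.9 in Tconv mock, 186 and 352 in Tconv Foxp3, 67.4 and 145 in Treg, 57.6 and 69.7 in scurfy mock, and 140 and 212 in scurfy Foxp3. The remaining probe sets spanned 10.4 to 155 (1435449_at) and 1.89 to 151 (1456006_at), both lowest on Tconv mock array 2. Between Tconv Foxp3 and Tconv mock the 5 probe sets differed by 1.59 to 2.09, with unadjusted p below 0.05 in all 5 and no overlap in 4. Of all probe sets, 13.2% had such a p and 45.9% were higher without overlap. The 1456005_a_at difference was 1.85 (SE 0.50, 0.74 to 2.96, adjusted p = 0.213) and that of 1435449_at was 1.79 (SE 0.44, 0.81 to 2.77, adjusted p = 0.189). With array weights the latter had an adjusted p of 0.0474, against 0.126 to 0.992 when single arrays were left out, and its difference was 1.05 when Tconv Foxp3 array 2 was dropped and 2.53 when array 1 was. Averaging the probe sets of the gene gave 1.88 (SE 0.51, adjusted p = 0.197). Between scurfy Foxp3 and scurfy mock all 5 probe sets were higher without overlap, by 0.17 to 1.25, as were 13.2% of all probe sets. The dim 1435449_at was barely so, at 31.6 and 31.9 in scurfy Foxp3 and 31.3 and 21.9 in scurfy mock. The probe set 1456005_a_at was higher by 1.05 (SE 0.50, -0.06 to 2.16, unadjusted p = 0.0613, adjusted p = 1).

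The size of the Bcl2l11 differences depended on which Tconv mock array was used. For 1456005_a_at, Tconv Foxp3 stood 2.64 above Tconv mock array 2 alone and 1.06 above Tconv mock array 1 alone. The corresponding Treg difference, 1.34 with both arrays (SE 0.50, 0.23 to 2.45, adjusted p = 0.221), was 2.13 and 0.55 against the same single arrays. Scurfy mock stood 0.29 above Tconv mock (SE 0.50, -0.82 to 1.40, adjusted p = 0.83), a value that turned to -0.02 at a common 75th percentile and to -0.50 without Tconv mock array 2. Against Treg, scurfy mock was lower by -1.05 without overlap (SE 0.50, -2.16 to 0.06, adjusted p = 0.678).

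B cell marker signal was higher in Foxp3-labelled than in mock arrays of the same starting cells, and followed Bcl2l11 only in part. The 6 measured of 7 B cell markers (Cd79a, Cd79b, Ms4a1, Cd22, Blk and Pax5) summed to 47.6 and 39.3 in Tconv mock, 286 and 487 in Tconv Foxp3, 54.0 and 555 in Treg, 75.6 and 332 in scurfy mock, and 725 and 1730 in scurfy Foxp3. All 6 were higher without overlap in Tconv Foxp3 than in Tconv mock, and 4 of 6 in scurfy Foxp3 than in scurfy mock. None was listed at 0. Of all tested probe sets, 45.9% and 13.2% were higher without overlap in these comparisons. Some B cell markers were near the floor in Tconv mock, such as Pax5 at 0.684 and 1.11 and Blk at 0.767 and 1.61. Treg array 2, with the higher B cell signal of the pair, was also the Treg array with more Bcl2l11, whereas the scurfy mock arrays had nearly equal Bcl2l11 with unequal B cell signal. The Tconv mock arrays, close in B cell signal, read 1378 and 449 for Bcl2l11 1456005_a_at. Scurfy Foxp3 had more B cell signal than Tconv Foxp3 and read lower for that probe set. Myeloid markers (7 of 7 measured, none listed at 0) also moved with the Foxp3 label in scurfy cells, where 4 of 7 were higher without overlap and their sums were 259 and 447 in scurfy Foxp3 and 170 and 99.5 in scurfy mock. In GFP- cells 1 of 7 was higher and 2 were lower without overlap, with sums of 101 and 105 in Tconv Foxp3 and 211 and 85.6 in Tconv mock, and the Treg sums were 159 and 224. Between scurfy Foxp3 and Tconv Foxp3, 5 of 7 were higher in scurfy Foxp3 without overlap. Of all tested probe sets, 21.0% were so there, and 10.9% were lower without overlap in Tconv Foxp3 than in Tconv mock. The part of B cell or myeloid RNA in the Bcl2l11 values was not tested. Of the other members, Bcl2 1457687_at had more signal in Tconv Foxp3 than in Tconv mock, with more B cell signal, and less in scurfy Foxp3 than in scurfy mock, again with more B cell signal.

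**Figure D2:**
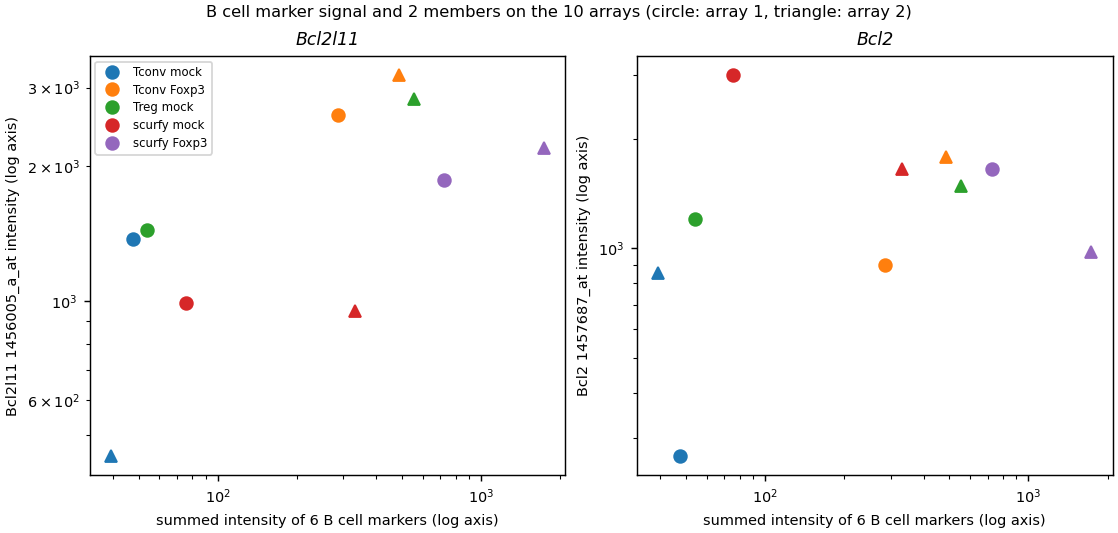
Intensity of Bcl2l11 1456005_a_at (left) and Bcl2 1457687_at (right) on log axes, against the summed intensity of 6 B cell markers (log axis), for the 10 arrays coloured by group with array 1 as a circle and array 2 as a triangle. The 2 Tconv mock arrays, at 47.6 and 39.3, had the least B cell signal and read 1378 and 449 for Bcl2l11, and scurfy Foxp3 array 2, at 1730, read 2200 for Bcl2l11 and 977 for Bcl2.

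Bid, the BH3-only protein that caspase-8 cleaves to link death receptors to mitochondria, was dim. The probe set 1417045_at read 35.4 and 57.1 in Tconv mock, 57.4 and 107 in Tconv Foxp3, 66.4 and 103 in Treg, 83.5 and 77.9 in scurfy mock, and 84.6 and 71.2 in scurfy Foxp3. Both Tconv mock arrays were below all other arrays, the second of them by little. The differences from Tconv mock were 0.64 to 0.69 (SE 0.35 each, adjusted p between 0.355 and 0.465). The probe set 1448560_at read between 21.8 and 66.0 and its groups overlapped in every comparison.

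Fas, the death receptor, was dim and uneven between replicates. Its probe set 1460251_at read 38.0 and 120 in Tconv mock, 143 and 251 in Tconv Foxp3, 106 and 271 in Treg, 67.2 and 161 in scurfy mock, and 203 and 95.5 in scurfy Foxp3. Of the 3 groups set against Tconv mock, only Tconv Foxp3 lay above both of its arrays. The differences from Tconv mock were 1.26 in Tconv Foxp3 (SE 0.61, -0.10 to 2.62, adjusted p = 0.411), 1.12 in Treg (SE 0.61, -0.24 to 2.49, adjusted p = 0.386) and 0.50 in scurfy mock (SE 0.61, adjusted p = 0.753). Without Tconv mock array 1, which had the lowest Fas value of all, these were 0.60, 0.46 and -0.16, and without Tconv mock array 2 they were 1.93, 1.79 and 1.17.

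Fasl, which encodes the ligand that triggers Fas, varied widely within groups. Its probe set 1449235_at read 26.8 and 113 in Tconv mock, 31.9 and 223 in Tconv Foxp3, 55.1 and 15.3 in Treg, 119 and 115 in scurfy mock, and 177 and 209 in scurfy Foxp3. The 4 scurfy arrays were above both Treg arrays and spanned a narrow range, while the 2 arrays of each Tconv group were far apart. Scurfy mock exceeded Treg by 1.5 without overlap (SE 0.74, -0.15 to 3.15, adjusted p = 0.697). The second probe set, 1418803_a_at, read 10.9 to 83.4, lowest on Treg array 2, with overlapping groups in each of the comparisons of 2 groups.

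**Figure D3:**
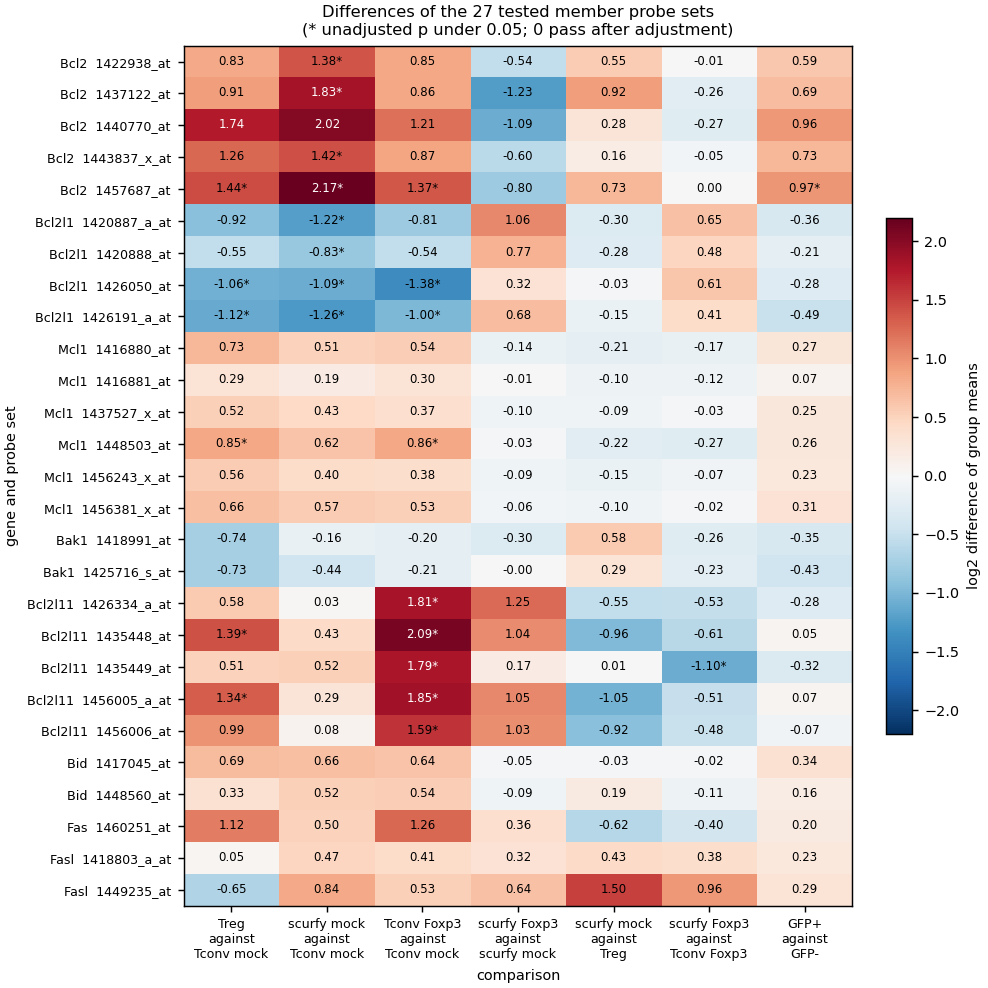
Log2 difference of group means for the 27 tested member probe sets (rows) in 7 comparisons (columns), with red for higher and blue for lower in the group named first and an asterisk at an unadjusted p under 0.05. The columns against Tconv mock are red for Bcl2 and blue for Bcl2l1, the scurfy Foxp3 against scurfy mock column has those colours exchanged, and no value passed after adjustment.

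Read against the array as a whole, the member probe sets gave these counts. In Treg against Tconv mock, 0 of 27 members were called, beside 1.08% of all probe sets, and 6 had an unadjusted p under 0.05, beside 16.8%. Groups did not overlap in 13 members that were higher and 6 that were lower, beside 39.9% and 13.4% of all. The member median was 0.58 and that of all probe sets 0.26. In scurfy mock against Tconv mock, 0 members were called beside 0.326%, and 8 had an unadjusted p under 0.05 beside 12.6%. Without overlap, 8 were higher and 4, all of them Bcl2l1, were lower, beside 37.7% and 11.0%. The member median was 0.47, with 21 of 27 positive, against 0.24 for all.

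In Tconv Foxp3 against Tconv mock, 0 members were called, beside 0.0192% of all probe sets, and 9 had an unadjusted p under 0.05, beside 13.2%. These 9 were all 5 probe sets of Bcl2l11, 2 of Bcl2l1, 1 of Bcl2 and 1 of Mcl1. Without overlap, 13 were higher and 5 lower, beside 45.9% and 10.9%, and the member median was 0.54 against 0.26. In scurfy Foxp3 against scurfy mock, 0 members were called, beside 0%, and 0 had an unadjusted p under 0.05, beside 4.25%. Without overlap, 9 members were higher, beside 13.2%, namely 5 probe sets of Bcl2l11, 3 of Bcl2l1 and 1 of Fasl, and 1 Bcl2 probe set was lower, beside 10.1%. The member median was -0.01 and that of all -0.04.

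The Foxp3-labelled and mock arrays could be compared in GFP- cells and in GFP+ scurfy cells, with no array in common. Bcl2l1 was lower in Foxp3-labelled Tconv and higher in Foxp3-labelled scurfy cells, where 1420887_a_at differed by 1.06 (SE 0.48, -0.02 to 2.13), 1420888_at by 0.77 (SE 0.35), 1426191_a_at by 0.68 (SE 0.36) and 1426050_at by 0.32 (SE 0.28). Bcl2 was higher in Foxp3-labelled Tconv and had negative values in scurfy cells, from -0.54 to -1.23. Bcl2l11 was positive in both. The difference of these 2 effects was tested as an interaction, scurfy minus Tconv. It called 0 members, beside 0% of all probe sets, and 7 of 27 had an unadjusted p under 0.05, beside 7.93%. The 7 were all 4 probe sets of Bcl2l1, at 1.31 to 1.86, 2 of Bcl2 and 1 of Bcl2l11. For Bcl2l1 1426050_at the interaction was 1.70 (SE 0.39, 0.83 to 2.57, unadjusted p = 0.00151, adjusted p = 0.498), and for Bcl2 1457687_at it was -2.17 (SE 0.80, -3.95 to -0.39, unadjusted p = 0.022, adjusted p = 0.623). All 5 Bcl2 values were negative, from -1.39 to -2.30, on an array whose median interaction was -0.31. These interactions lean on single mock arrays. All 4 Bcl2l1 probe sets read lower on scurfy mock array 1 than on array 2. For 1420887_a_at, scurfy mock read 304 and 944 and scurfy Foxp3 1344 and 960. For all 5 Bcl2 probe sets, array 1 was the higher in scurfy mock and the lower in Tconv mock.

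**Figure D4:**
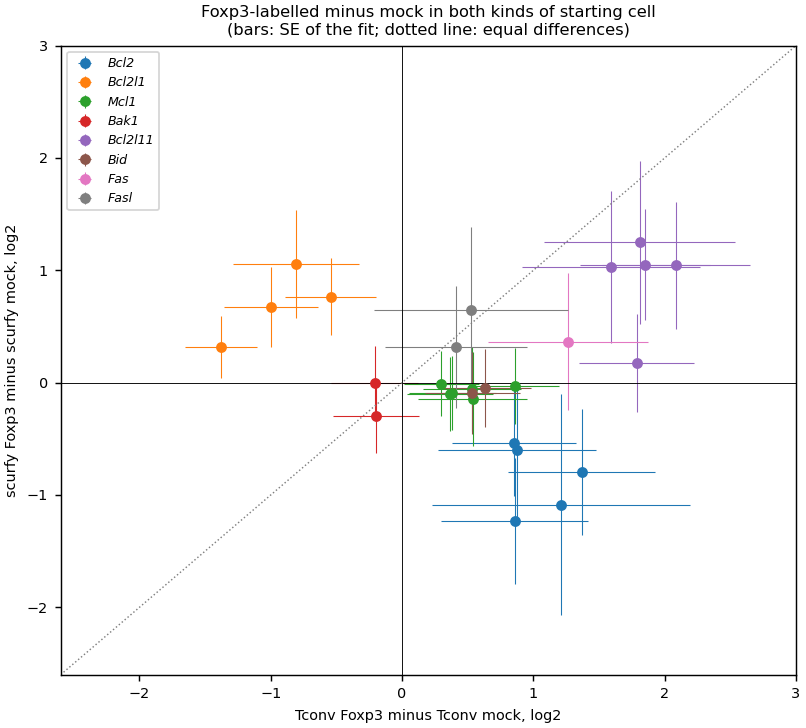
Log2 difference between Foxp3-labelled and mock arrays in GFP- Tconv cells (horizontal axis) and in GFP+ scurfy cells (vertical axis) for the 27 tested member probe sets, coloured by gene, with bars for the SE of the fit and a dotted line of equal differences. The 4 Bcl2l1 probe sets lie at upper left, the 5 Bcl2 probe sets at lower right and the 5 Bcl2l11 probe sets at the right above 0.

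Scurfy mock against Treg compares GFP+ cells with mutated and intact Foxp3, both with empty vector. It called 0 members, beside 0.199% of all probe sets, and none had an unadjusted p under 0.05, beside 7.83%. Without overlap, 5 members were higher and 3 lower in scurfy mock, beside 15.3% and 17.3%. The higher ones were 3 probe sets of Bcl2, 1 of Bak1 and 1 of Fasl, and the lower ones were 3 of Bcl2l11. Bcl2l1 differed by -0.30 to -0.03. The widest interval over its probe sets, that of 1420887_a_at, ran from -1.38 to 0.78, and differences within it were not excluded for that probe set.

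Scurfy Foxp3 against Tconv Foxp3 uses none of the arrays of Treg against Tconv mock. It called 0 members, beside 1.15% of all probe sets, and 1 had an unadjusted p under 0.05, beside 14.5%. This was Bcl2l11 1435449_at, at -1.10 (SE 0.44, -2.08 to -0.12, adjusted p = 0.29). Without overlap, 3 members were higher, all Bcl2l1, beside 21.0%, and 8 lower, beside 24.5%. The Bcl2l1 differences were positive here, 0.41 to 0.65, and negative in Treg against Tconv mock. For Bcl2 1457687_at the difference was 0.00 (SE 0.56, -1.26 to 1.26).

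Over all 10 arrays, the mean of the 3 GFP+ groups was set against that of the 2 GFP- groups. This called 0 members, beside 2.98% of all probe sets, and 1 had an unadjusted p under 0.05, beside 19.3%. That one was Bcl2 1457687_at, higher in GFP+ cells by 0.97 (SE 0.36, 0.16 to 1.79, adjusted p = 0.182). No member separated the 6 GFP+ from the 4 GFP- arrays, whereas 3.38% of all probe sets were higher and 2.06% lower without overlap. Values for Bcl2l1 were -0.49 to -0.21 and for Bcl2l11 -0.32 to 0.07.

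Agreement between replicates set the limit on these comparisons. In Tconv mock, 12 of 27 members differed by more than 1 log2 unit between the 2 arrays, where 6.27% of all tested probe sets did. They were all 5 probe sets of Bcl2, both of Fasl and the 1 of Fas, which were higher on array 2, and 4 of Bcl2l11, which were higher on array 1. The count was 3 of 27 in Tconv Foxp3 (4.43% of all), 4 in Treg (10.2%), 5 in scurfy mock (14.4%) and 3 in scurfy Foxp3 (17.3%). Tconv mock, the control of 3 comparisons, was thus the group in which most members were spread widely.

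The wider apoptosis network was read through 5 lists with 64 genes. Among 12 tested genes of the death receptor pathway none was called in any comparison. Tnfsf10, the ligand TRAIL, was higher in Treg than in Tconv mock by 1.97 (1439680_at, SE 0.46, adjusted p = 0.0848) and in GFP+ than in GFP- arrays by 1.29 (SE 0.30, adjusted p = 0.0528). The GFP+ groups differed, with 507 and 670 in Treg and 484 and 142 in scurfy mock, beside 145 and 130 in Tconv mock. Scurfy mock stood 0.87 above Tconv mock (SE 0.46, adjusted p = 0.463). Fcmr, which encodes a receptor also known as Toso, was lower in Treg than in Tconv mock by -1.90 (SE 0.46, adjusted p = 0.0931). Among 11 tested genes for other BH3-only and effector proteins none was called. Pmaip1, which encodes NOXA, was higher in GFP+ arrays by 1.02 (SE 0.25, adjusted p = 0.0657), and Bmf was higher in scurfy Foxp3 than in Tconv Foxp3 by 1.65 (1454880_s_at, SE 0.38, adjusted p = 0.0754). This dim Bmf probe set read 43.1 and 55.0 in scurfy Foxp3 and 0.616 and 9.77 in Tconv Foxp3. The brighter 1458325_x_at read 83.6 and 82.6 in scurfy Foxp3, within the 107 and 75.7 of Tconv Foxp3. None of 14 tested caspases and their inhibitors or cofactors was called, and neither was Bcl2l2, the 1 tested gene of the other anti-apoptotic members.

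Calls were found among 15 tested upstream regulators only. In scurfy Foxp3 against Tconv Foxp3, the early response transcription factor gene Egr3 was lower by 3.12 on the log2 scale (1436329_at, SE 0.54, adjusted p = 0.0304) and the cytokine gene Il2 was lower by 4.28 (SE 0.84, adjusted p = 0.0477). Il2 read 7.01 and 25.0 in scurfy Foxp3 and 254 and 1298 in Tconv Foxp3. In the mock arrays Il2 read 6.96 and 14.8 in scurfy mock and 11.3 and 101 in Tconv mock. Tconv Foxp3 differed from Tconv mock by 3.39 for Il2 and by 1.18 for Egr3. Scurfy Foxp3 differed from scurfy mock by 0.21 and 0.35, and none of these was called. In GFP+ against GFP- arrays, Egr3 was lower by 2.14 (SE 0.35, adjusted p = 0.0144) and the growth regulator Myc was lower by 1.24 (SE 0.24, adjusted p = 0.0274). The GFP+ groups were not alike in this. Against Tconv mock, Egr3 and Myc differed by -0.42 and -0.08 in Treg (adjusted p = 0.738 and 0.942). In scurfy mock they differed by -2.28 and -1.67 (adjusted p = 0.155 and 0.129). Il7r, the interleukin 7 receptor whose signal sustains Bcl2, was higher in GFP+ arrays by 1.30 (1448575_at, SE 0.28, adjusted p = 0.0402). The GFP- groups were not alike for Il7r, with 980 and 735 on Tconv Foxp3 arrays but 2599 and 1177 on Tconv mock arrays. Tconv mock array 1 thus lay within the GFP+ values, 2426 to 4671. Set against Tconv mock, Tconv Foxp3 differed by -1.03 (adjusted p = 0.356). Treg differed from it by only 0.67 (adjusted p = 0.467), and scurfy mock by 0.94 (adjusted p = 0.407). Each of these 5 calls was lost without at least 3 of the 10 arrays in turn. Egr3 in the first comparison lost its call without each of the 4 arrays compared, and Il2 without those and without each Treg array. In the GFP comparison, Egr3 lost its call without Tconv Foxp3 array 2 or either Tconv mock array. Myc lost its call without scurfy Foxp3 array 1, Treg array 2 or any of the 4 Tconv arrays. Il7r lost its call without every array except scurfy mock array 2 and Tconv mock array 1. All 5 calls were lost with no filter on low values, and all but that of Egr3 in the GFP comparison with a pseudocount of 1. After quantile normalization, Egr3 and Il2 in scurfy Foxp3 and Myc were not called, and with array weights neither Egr3 nor Il2 in scurfy Foxp3.

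For member probe sets whose group means spanned more than 1 log2 unit, the single-symbol genes nearest in profile were found by the root mean square difference of centred log2 values over the 10 arrays. Npy1r, a neuropeptide Y receptor gene, was among the 3 nearest for all 5 Bcl2 probe sets, at 0.24 log2 units for 1422938_at, and the T cell receptor component Cd3g was among them for that probe set, at 0.26. Bcl2l1 was nearest to Nfat5 (0.24, 1420887_a_at), Unc93b1 (0.23, 1426050_at) and Cuedc1 (0.22, 1426191_a_at), and Plin2 was among the 3 nearest for 2 of its probe sets. Siah1a was among the nearest for 3 Bcl2l11 probe sets, at 0.36 for 1456005_a_at. Mtf2 and Ltb stood at the same distance to 2 decimals from that probe set, and Vpreb1, a gene of the B cell lineage, was among the 3 nearest of 1456006_at, at 0.45. Fas was nearest to Pacc1 (0.31) and Fasl 1449235_at to Dusp6 (0.49). These points share arrays and their spread, and the distances are a description without a test.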

How the data were processed

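RNA of each sample was hybridised to 1 Affymetrix whole-genome mouse array. The authors deposited a linear intensity for every probe set, computed in Affymetrix Expression Console per the submitters' processing notes. Sources used here do not give its version, summary method or scaling. Of 45101 probe sets, 64 are controls; of the rest, 34945 have 1 symbol in the platform annotation, 932 several and 9160 none.

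Values were taken as log2(intensity + 16), with no further normalization, and limma 3.58.1 (R 4.3.3) was fitted over all 10 arrays to probe sets that exceeded their array's median on 2 or more (5 residual degrees of freedom, 4.716 from the prior). Benjamini-Hochberg adjustment covered all 26069 probe sets. The number of arrays and, for dim probe sets, background limit precision. Scripts were tested on simulated data with the fitted spread and known changes in the Treg group. In Treg against Tconv mock, 3 of 67 changes of 1 log2 unit were called, 53 of 67 of 2 units and 64 of 66 of 3. Of 134 calls, 14 were false. The absence of member calls therefore says little about differences near 1 log2 unit.

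Every member probe set is named. From the wider lists, any called gene and otherwise some of the 3 with the smallest p in each comparison are named. The members and lists were chosen with earlier results of these data known. Alternatives covered scaling, pseudocount (1 and 64), filter, probe set choice, eBayes options, array weights, samples fitted, each array left out in turn and the replicate number as a block. Replicate numbers were not used to pair samples: same-numbered arrays did not deviate together (r from -0.143 to 0.15 over 10 correlations).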

Additional observations from a re-analysis of the deposited data

Results flagged for a closer look

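For 3 of 4 Bcl2l1 probe sets, both Foxp3-labelled arrays lay below both mock arrays in GFP- Tconv cells and above both mock arrays in GFP+ scurfy cells, which is why they are listed here. The difference between the 2 effects, scurfy minus Tconv on the log2 scale, was 1.86 for 1420887_a_at (SE 0.68, unadjusted p = 0.0214, adjusted p = 0.623 in limma), 1.31 for 1420888_at (SE 0.49, unadjusted p = 0.0239, adjusted p = 0.623) and 1.70 for 1426050_at (SE 0.39, unadjusted p = 0.00151, adjusted p = 0.498). None passed after adjustment over all 26069 probe sets. The same array values chose these probe sets and gave the p-values, which are therefore no independent test. The share of all probe sets that meet this rule was not counted. The largest gap between replicates among these was in scurfy mock, where 1420887_a_at read 304 and 944. Scurfy Foxp3 read 1344 and 960 for it, the latter only just above scurfy mock array 2. For 1426050_at, scurfy Foxp3 read 38.6 and 38.9 and scurfy mock 22.2 and 34.6. For 1420888_at, scurfy Foxp3 read 316 and 329 and scurfy mock 124 and 267. The separation in scurfy cells thus came largely from scurfy mock array 1.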

How the results depend on the processing

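Over 22 alternatives, the count of called member probe sets stayed at 0 in 5 of 8 comparisons and moved in 3. It was 1 in Treg against Tconv mock under quantile normalization and 1 under a common 75th percentile (Bcl2l1 1426050_at both times), and 2 in Tconv Foxp3 against Tconv mock with array weights. It ran from 0 to 1 in scurfy mock against Tconv mock when single arrays were left out, with the 1 found without scurfy mock array 2. The cause of these moves was not tested. With the replicate number as a block, 0 members were called in all 8 comparisons (smallest adjusted p = 0.157), and same-numbered arrays did not correlate in their deviations (median r = -0.0301). Of 216 member differences, 81 changed sign under some alternative, 29 outside the leave-one-out fits and 27 under another scaling. Of the 46 that were at least 1 log2 unit in size, 1 changed sign under any alternative. Over all probe sets, calls ran from 15 without Tconv mock array 2 to 610 with array weights in Treg against Tconv mock (281 as reported), from 0 in a fit of the compared groups alone to 437 without scurfy mock array 2 in scurfy mock against Tconv mock (85), from 0 to 924 with array weights in Tconv Foxp3 against Tconv mock (5), from 0 to 172 in scurfy mock against Treg (52), from 22 to 550 in scurfy Foxp3 against Tconv Foxp3 (300) and from 151 to 1292 in GFP+ against GFP- arrays (776). Scurfy Foxp3 against scurfy mock reached 72 without scurfy mock array 2, and the interaction 6, both 0 as reported. Fits without 1 array leave a lone array in its group, whose spread is assumed to equal that of the others.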
